A study of Mus musculus with 24 samples.

Results

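Macrophages were followed through 10 of their genes, out of 56748 genes counted, in the dental mesenchyme of the mouse first mandibular molar. The genes were chosen by name, as textbook genes of macrophages, with earlier results of these data known. They were *Csf1r*, *Cd68*, *Adgre1*, *C1qa*, *C1qb*, *C1qc*, *Mrc1*, *Lyve1*, *Cx3cr1* and *Tyrobp*. Their levels were read in 24 bulk RNA-seq libraries that fall into 8 groups of 3. Tooth germs came from ICR embryos at embryonic day 13, here called cap, or day 15, called bell. The mesenchyme was freed from the epithelium with dispase, either from the undivided germ (Cap-W and Bell-W) or from its lingual (tongue side, Cap-L and Bell-L) and buccal (cheek side, Cap-B and Bell-B) parts. Lingual and buccal parts of cap germs were also kept in vitro for 2 days without the other part (Cap-L+2D and Cap-B+2D). No source names a mutation, a transgene or a drug in any group. Embryos of a few pregnant mice were used, and nothing ties a library to an embryo or a litter, so the p-values below measure only the spread between libraries, which may be technical. The libraries are of whole mesenchyme, in which fewer macrophages and less RNA per macrophage cannot be told apart.

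Macrophages enter embryonic tissues early, from the yolk sac and fetal liver, and they engulf dying cells, remodel vessels and matrix and give rise to osteoclasts next to bone and teeth. They depend on CSF1R, the receptor tyrosine kinase for the growth factors CSF1 and IL-34. TYROBP (DAP12) is a membrane adaptor that carries the activating signal of receptors such as TREM2. C1QA, C1QB and C1QC are the chains of complement C1q, which tags debris and dying cells for uptake and which tissue macrophages make in large amounts. CD68 is a glycoprotein of late endosomes and lysosomes, ADGRE1 is the F4/80 antigen, MRC1 (CD206) is a mannose receptor that takes up glycoproteins, LYVE1 is a hyaluronan receptor found on some perivascular macrophages and also on lymphatic endothelium, and CX3CR1 is the receptor of the chemokine CX3CL1.

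The libraries held 20581720 to 39266497 counted read pairs. A count of 3, taken as the floor, was 0.0764 to 0.146 CPM (counts per 1000000 counted pairs), a limit that covers counting error only. Levels are given as normalized CPM, that is CPM after TMM scaling over the 24 libraries, and comparisons between genes as TPM, which also divides by exon length. The undivided cap libraries stood apart from the cap parts. The members' summed level was 49.2 to 53.4 CPM in Cap-W, 99.8 to 105 in Cap-L and 104 to 110 in Cap-B, and a list of 8 blood endothelial genes summed to a mean of 207, 510 and 454 CPM in the same groups. Macrophage and vessel genes were thus both lower in the undivided cap mesenchyme than in either part, a difference that was not tested. One Cap-W library, replicate 1, had 5.39% of its counts on an 18S ribosomal RNA gene, whereas the other 23 had at most 1.43%. Genes of dental mesenchyme, among them *Msx1*, *Pax9* and *Barx1*, summed to group means of 1920 to 3170 CPM, and were thus detected in every group. The macrophage genes summed to 51.7 to 423 CPM.

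The members lie on 7 chromosomes. *C1qb*, *C1qc* and *C1qa* lie side by side on chromosome 4 of GRCm39, all on the minus strand, at chr4:136607440-136613498, chr4:136617115-136620376 and chr4:136623228-136626114, and counts were summed over their exons. *Csf1r* shares 15.1% of its exon bases with another annotated gene, and reads on shared bases were not counted for either. Promoter sequences from RefSeq (GRCm38.p6) were at hand for 5 of the 10 members. The 250 bases before the transcription start are shown for these 5 to set the upstream sequence beside the levels. They lie at chr4:136886201-136886450, chr4:136892915-136893164, chr11:69666171-69666420, chr2:14229164-14229413 and chr9:120068297-120068546, and are written 5′ to 3′ on the strand of the gene. Capitals mark the letters GAGGAA, the core bound by PU.1, the main transcription factor of the myeloid lineage, or TTCCTC, the same letters on the other strand.

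C1qb: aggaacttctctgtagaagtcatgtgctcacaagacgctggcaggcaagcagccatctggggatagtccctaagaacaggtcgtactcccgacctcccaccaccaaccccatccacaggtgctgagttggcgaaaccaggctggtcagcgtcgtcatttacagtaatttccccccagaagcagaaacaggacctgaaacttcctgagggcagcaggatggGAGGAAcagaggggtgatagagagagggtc
C1qc: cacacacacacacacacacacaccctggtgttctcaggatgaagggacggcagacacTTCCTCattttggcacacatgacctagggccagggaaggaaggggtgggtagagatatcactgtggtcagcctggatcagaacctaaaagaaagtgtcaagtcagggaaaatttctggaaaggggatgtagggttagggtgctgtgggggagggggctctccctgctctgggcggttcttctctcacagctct
Cd68: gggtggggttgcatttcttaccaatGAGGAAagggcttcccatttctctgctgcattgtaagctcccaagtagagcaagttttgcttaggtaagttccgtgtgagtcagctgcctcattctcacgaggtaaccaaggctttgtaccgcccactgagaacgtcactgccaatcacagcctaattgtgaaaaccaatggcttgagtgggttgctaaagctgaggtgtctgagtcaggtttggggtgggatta
Mrc1: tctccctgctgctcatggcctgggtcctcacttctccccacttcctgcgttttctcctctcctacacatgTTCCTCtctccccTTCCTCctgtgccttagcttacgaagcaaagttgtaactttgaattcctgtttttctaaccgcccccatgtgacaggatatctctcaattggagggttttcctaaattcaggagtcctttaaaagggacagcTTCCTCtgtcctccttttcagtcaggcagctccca
Cx3cr1: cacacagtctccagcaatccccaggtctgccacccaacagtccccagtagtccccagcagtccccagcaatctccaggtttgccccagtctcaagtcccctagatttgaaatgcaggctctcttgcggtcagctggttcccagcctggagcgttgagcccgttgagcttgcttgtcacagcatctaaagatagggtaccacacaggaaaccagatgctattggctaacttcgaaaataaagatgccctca

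GAGGAA occurred 1 time in *C1qb* and 1 time in *Cd68*, TTCCTC occurred 1 time in *C1qc* and 3 times in *Mrc1*, and neither was in the window of *Cx3cr1*. Of all 32851 RefSeq promoters, 7639 (23.3%) held either form in these 250 bases. A match of letters is no evidence of binding, and its absence says only that these letters are not in this window.

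**Figure D1:**
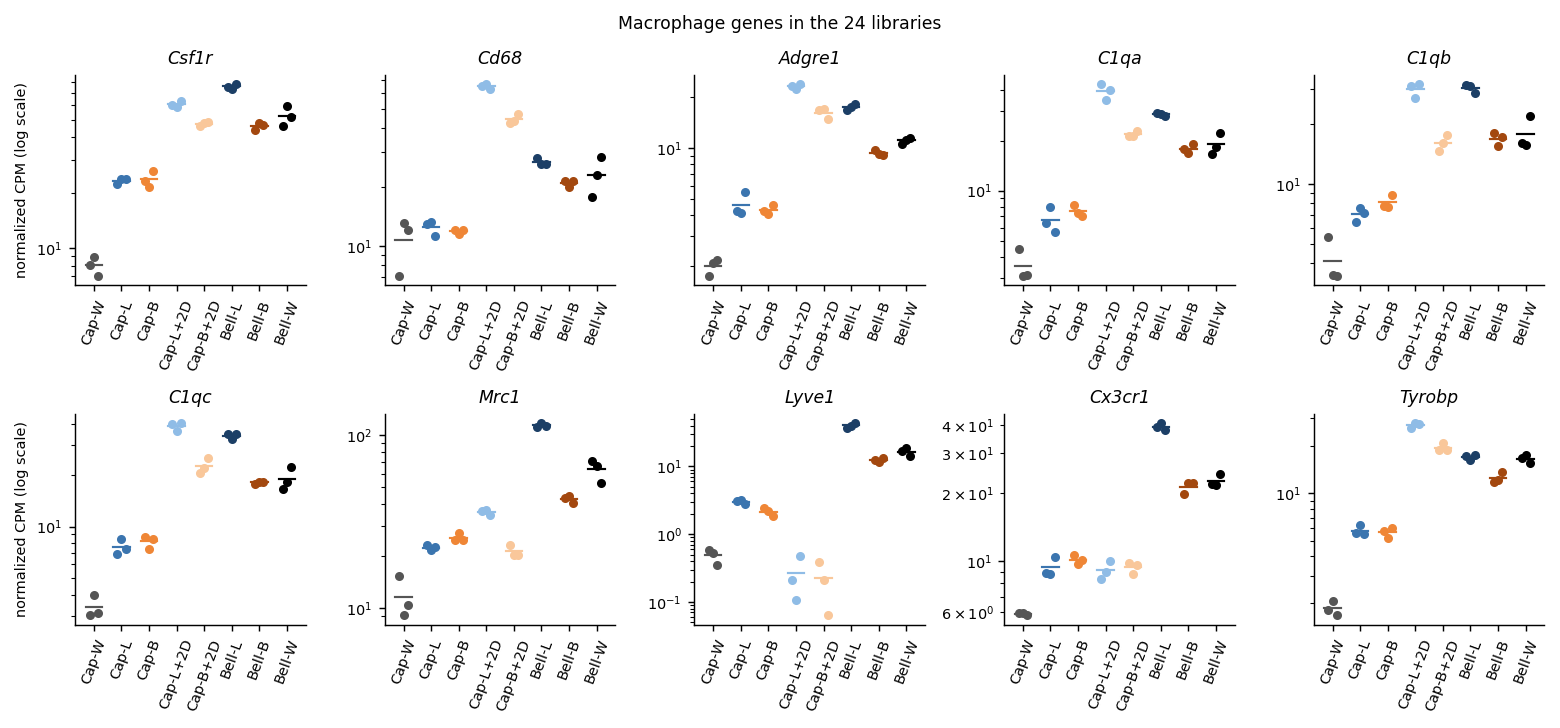
Normalized CPM (log scale) of each of the 10 macrophage genes in the 24 libraries, 3 points per group with a line at the mean. The bell libraries of each kind of sample lie above the cap libraries of the same kind in every panel, and for *Lyve1*, *Cx3cr1* and *Mrc1* the cultured libraries (pale) lie below all bell libraries of the same side, on both sides.

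All 10 members were higher at bell than at cap, in the undivided mesenchyme and in both parts. Each of the 10 passed the test in each of the 3 comparisons (edgeR quasi-likelihood test, adjusted p under 0.05 and log2 fold change over 0.5), against a background of 10.3% of genes called higher in the undivided mesenchyme, 14.2% on the lingual side and 12.0% on the buccal side. The members' median log2 fold change was 2.45, 2.09 and 1.09 in that order, and that of all genes tested was -0.03, 0.00 and 0.00. For all 10 genes the bell libraries did not overlap the cap libraries, which held for 36.3%, 56.1% and 55.2% of all genes tested in either direction. These 10 genes were picked for their cell type, with earlier results of these data known, and are not independent of each other.

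*Csf1r* measured 7.04 to 8.97 normalized CPM in Cap-W, 22.2, 23.7 and 23.7 in Cap-L, and 23.1, 21.6 and 26.3 in Cap-B. At bell it measured 75.8, 73.6 and 78.1 in Bell-L, 43.7, 48.0 and 46.7 in Bell-B, and 46.2, 59.3 and 51.6 in Bell-W. No bell library overlapped a cap library, and Bell-L stood above all others. The log2 fold change was 1.72 ± 0.0508 (SE) in the lingual part, 3.30-fold (edgeR, adjusted p = 2.55e-19), 0.95 ± 0.0565 in the buccal part (edgeR, adjusted p = 1.05e-15) and 2.69 ± 0.142 in the undivided mesenchyme (edgeR, adjusted p = 0.000143). *Tyrobp*, the adaptor, rose from a mean of 5.80 to 17.1 CPM in the lingual part, from 5.68 to 12.6 in the buccal part and from 1.86 to 16.6 in the undivided mesenchyme. *Adgre1*, the F4/80 antigen, rose 3.87-fold in the lingual part, 2.17-fold in the buccal part and 5.49-fold in the undivided mesenchyme.

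The C1q chains rose together. In the lingual part *C1qa* rose 4.30-fold, *C1qb* 4.32-fold and *C1qc* 4.50-fold, and in the buccal part 2.38-fold, 2.08-fold and 2.20-fold. Their means went from 6.67, 7.05 and 7.55 CPM in Cap-L to 28.7, 30.3 and 33.8 in Bell-L. On the TPM scale, *C1qa* and *C1qb* stood at nearly equal level in the uncultured mesenchyme, with a ratio of 0.819 to 1.23 over the 18 libraries. *Cd68* changed least among the members in the lingual part, from 12.9, 13.2 and 11.3 CPM in Cap-L to 27.9, 26.2 and 26.2 in Bell-L. Its log2 fold change was 1.12 ± 0.0646 in the lingual part, 0.81 ± 0.0672 in the buccal part and 1.08 ± 0.260 in the undivided mesenchyme. The last of these (edgeR, adjusted p = 0.0286) did not pass without Bell-W replicate 2, Bell-W replicate 3 or Cap-W replicate 3, where the edgeR adjusted p was 0.0905, 0.0746 and 0.0705.

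The uptake receptors *Lyve1* and *Mrc1* had the largest lingual changes of the 10. *Lyve1* measured 0.584, 0.529 and 0.354 CPM in Cap-W, 3.06, 3.23 and 2.75 in Cap-L, and 2.43, 2.17 and 1.85 in Cap-B. At bell it measured 17.0, 18.7 and 14.2 in Bell-W, 37.5, 40.0 and 43.1 in Bell-L, and 12.4, 11.5 and 13.2 in Bell-B. The change was 33.6-fold in the undivided mesenchyme (log2 5.07 ± 0.252, edgeR adjusted p = 0.000122), 13.4-fold in the lingual part (3.75, 95% interval 3.55 to 3.94, adjusted p = 3.68e-20) and 5.76-fold in the buccal part (2.53 ± 0.128, adjusted p = 1.52e-17). *Mrc1* rose 5.14-fold in the lingual part, from 23.1, 21.7 and 22.6 CPM to 111, 117 and 113, and 1.67-fold in the buccal part, from 24.8, 27.1 and 24.7 to 43.2, 44.7 and 40.4. *Cx3cr1* rose 4.22-fold in the lingual part, 2.08-fold in the buccal part and 3.83-fold in the undivided mesenchyme.

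*Lyve1* also marks lymphatic endothelium, and some genes of those vessels rose from cap to bell as well. *Ccl21a*, a chemokine of lymphatic endothelium, went from a mean of 0.545 CPM in Cap-L to 49.9 in Bell-L (log2 6.55 ± 0.111, edgeR adjusted p = 4.49e-24) and from 0.564 in Cap-B to 14.9 in Bell-B. *Prox1*, the master transcription factor of lymphatic fate, rose from 1.67 to 10.7 CPM in the lingual part and from 8.25 to 13.3 in the buccal part. At cap its mean was thus higher in the buccal part, where that of *Lyve1* was lower (2.15 against 3.01 CPM). Of the 4 lymphatic genes, 3 were called higher in the lingual part, where 14.2% of all genes were. In the buccal part and in the undivided mesenchyme 2 were called higher, beside 12.0% and 10.3% of all genes. None of the 4 was at or under the floor in all libraries of a group. Their summed level ranged from 53.8 to 60.5 CPM in Cap-L and from 129 to 134 in Bell-L. Their part in the *Lyve1* result was not tested. *Ccl21a* has near-identical copies in the genome, so its count is uncertain.

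**Figure D2:**
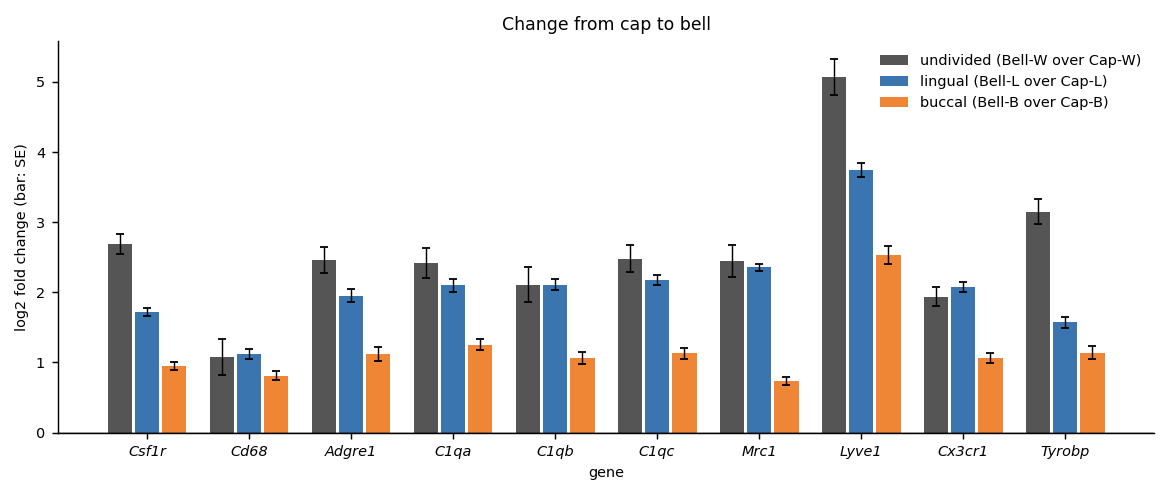
Log2 fold change from cap to bell for the 10 macrophage genes, with the SE as error bar, in the undivided mesenchyme (grey), the lingual part (blue) and the buccal part (orange). All 30 bars are above 0, *Lyve1* is the tallest in each colour (5.07, 3.75 and 2.53), and the lingual bar exceeds the buccal bar for each gene.

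Blood vessel genes were set beside the macrophage genes. All 8 blood endothelial genes rose from Cap-W to Bell-W, where 10.3% of all genes did. In the lingual part 2 of 8 passed and in the buccal part 1 of 8, where 14.2% and 12.0% of all genes did. Without the fold limit 8 and 7 of them passed, as did 10725 of 21425 genes tested in the lingual part and 10557 of 21992 in the buccal part. Most vessel gene changes in the parts were thus within the fold limit. The median log2 fold change of the vessel list was 1.15 for the undivided mesenchyme, 0.27 for the lingual and 0.35 for the buccal part, beside 2.45, 2.09 and 1.09 for the macrophage genes. The undivided changes are read against the low Cap-W level. The vessel sum had a mean of 207 CPM in Cap-W and 458 in Bell-W, against 510 in Cap-L and 454 in Cap-B. The macrophage sum had a mean of 51.7 CPM in Cap-W, against 102 in Cap-L and 107 in Cap-B. The part of the Cap-W level in the undivided changes was not tested. Erythroid genes, read for blood left in the tissue, summed to a mean of 2400 CPM in Cap-L, 2590 in Cap-B, 4660 in Bell-L and 4000 in Bell-B. The sum did not hold for each gene. Of the 8 erythroid genes, 4 were called higher and 3 lower at bell in the lingual part, and 3 higher and 4 lower in the buccal part. Their median log2 fold change was 0.24 and -0.07. Their part in the result was not tested.

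At the cap stage no member was called between the lingual and buccal parts, and at bell the lingual part had the higher level of each. None of the 10 passed both limits at cap (edgeR, background 17.5% of genes), 8 of 10 were called lower in the buccal part at bell (background 6.88% called lower), and the other two, *Cd68* and *Tyrobp*, were lower there with adjusted p under 0.05 but within the fold limit. The same bell libraries also differed in genes of other tissues. Skeletal muscle genes summed to a mean of 66.7 CPM in Bell-L and 535 in Bell-B, with 6 of 6 higher in the buccal part, and Schwann cell genes to 34.8 and 71.1, with 4 of 5 higher. Their part in the side difference at bell was not tested. The estimate for *Mrc1* had opposite signs at cap and bell, as had those for *Csf1r*, the C1q chains and *Cx3cr1*. *Mrc1* was 0.22 ± 0.0632 higher in the buccal part at cap on the log2 scale (edgeR, adjusted p = 0.0103, within the fold limit) and lower there at bell (-1.41 ± 0.0390, adjusted p = 1.44e-29). Its cap difference did not keep an adjusted p under 0.05 in every alternative (highest 0.341, edgeR or DESeq2). *Lyve1* had the lower level in the buccal part at both stages, with a log2 difference of -0.47 ± 0.152 at cap (edgeR, adjusted p = 0.0184, within the fold limit) and -1.70 ± 0.0613 at bell (adjusted p = 2.48e-25). For *Csf1r* the cap difference was 0.05, with a 95% interval of -0.08 to 0.19, and the bell difference was -0.72, with an interval of -0.80 to -0.64. The C1q chains were also lower in the buccal part at bell, with log2 differences of -0.68 (*C1qa*), -0.84 (*C1qb*) and -0.91 (*C1qc*).

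The change from cap to bell itself differed between the sides. In a fit with a side by stage term, all 10 members passed (edgeR, adjusted p under 0.05, against a background of 18.0% of genes called in the same direction), each with the smaller rise in the buccal part. The log2 difference ran from -0.32 ± 0.0937 for *Cd68* (edgeR, adjusted p = 0.0096) to -1.64 ± 0.0742 for *Mrc1* (adjusted p = 5.56e-17), with a median of -0.95 over the members and -0.02 over all genes tested. *Cd68* did not pass when all 24 libraries shared 1 fit (edgeR, adjusted p = 0.434).

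**Figure D3:**
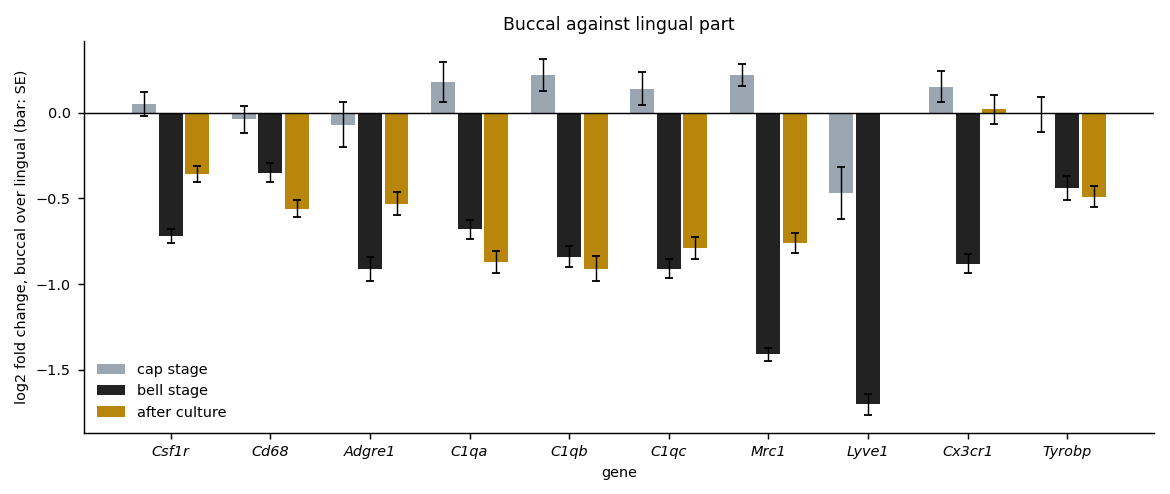
Log2 fold change of the buccal over the lingual part for each macrophage gene at cap (grey), at bell (black) and after 2 days of culture (gold), with the SE as error bar. Grey bars lie between -0.47 and 0.22, all 10 black bars lie below 0, and *Lyve1* has no gold bar because its counts after culture were too low to test.

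Lists of further macrophage and immune genes differed in how many members were lower in the buccal part at bell, where 6.88% of all genes were called lower and 6.00% higher. Of 10 genes known from resident macrophages, 7 could be tested and all 7 were lower there, among them *F13a1*, which encodes the transglutaminase factor XIIIa, at 40.3 against 114 CPM (-1.50 ± 0.0384, edgeR adjusted p = 1.28e-30), and the haemoglobin scavenger receptor *Cd163* at 0.801 against 2.54 (-1.66 ± 0.195, adjusted p = 2.41e-09). Of 8 immune receptors and their adaptors, 5 were lower and none higher. Fewer passed in the broader lists. Of 10 leukocyte-wide genes 2 were lower, as were 2 of 10 phagolysosome genes, 2 of 9 inflammatory genes and 1 of 7 clearance receptors, and none was higher. Of 6 microglia genes 3 were lower and 1 higher. At cap, where 17.5% of all genes were called either way, 5 of 9 inflammatory genes were higher in the buccal part and none lower. Of 7 myeloid transcription factors 1 was higher and 2 lower at cap. Of 10 leukocyte-wide genes 1 was higher and 1 lower, and of 6 resident macrophage genes tested at cap none was called. The ligand *Csf1* was also lower in the buccal part at bell, at 55.7 against 89.6 CPM (-0.69 ± 0.0378, edgeR adjusted p = 4.65e-19), and at cap it was 37.3 against 38.8 (-0.03 ± 0.0511, adjusted p = 0.663). *Il34*, the other ligand of the receptor, was at 0.885 CPM on both sides at bell. Genes of other blood cells were set beside these. Of 7 monocyte and neutrophil genes tested, 3 were higher in the buccal part and none lower, and the mast cell protease *Cpa3* rose from 11.0 CPM in Cap-B to 50.9 in Bell-B and from 1.25 in Cap-L to 11.4 in Bell-L. Of the 4 lymphatic genes 2 were lower in the buccal part at bell, and of the 8 blood endothelial genes none was called (edgeR). Without the fold limit 5 of these 8 were called, as were 7846 of all 21181 genes tested.

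After 2 days in vitro, apart from the embryo and its circulation, most of the members were above their cap level. In the lingual part 8 of 10 were called higher and 1 lower (background 19.6% higher, 15.9% lower), and in the buccal part 7 were called higher and 1 lower (background 17.9% and 16.6%). *Lyve1* was the gene that fell on both sides, and *Cx3cr1* was not called on either. All 8 erythroid genes fell on both sides, to a mean sum of 28.9 CPM in Cap-L+2D and 30.2 in Cap-B+2D.

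*Cd68* had the highest levels of all 8 groups in culture. It measured 65.5, 66.6 and 63.0 normalized CPM in Cap-L+2D and 42.3, 43.2 and 47.0 in Cap-B+2D. Both exceeded every bell library, the highest of which was 28.3. Over cap the change was 5.18-fold in the lingual part (log2 2.37 ± 0.0602, edgeR adjusted p = 4.32e-21) and 3.61-fold in the buccal part (1.85 ± 0.0606, adjusted p = 3.40e-23). *Adgre1* rose 5.02-fold and 3.66-fold, and *Tyrobp* rose 4.63-fold and 3.34-fold. *Csf1r* rose less, 2.59-fold to 59.9, 58.6 and 62.9 CPM in the lingual part and 1.95-fold to 46.0, 48.0 and 48.4 in the buccal part. The C1q chains rose 5.84-fold (*C1qa*), 4.20-fold (*C1qb*) and 5.06-fold (*C1qc*) in the lingual part and 2.83-fold, 1.94-fold and 2.68-fold in the buccal part.

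*Mrc1*, *Cx3cr1* and *Lyve1* did otherwise. *Mrc1* rose 1.59-fold in the lingual part, to 36.4, 36.8 and 34.7 CPM (log2 0.67 ± 0.0532, edgeR adjusted p = 3.82e-11), and in the buccal part measured 23.3, 20.4 and 20.3, against 24.8, 27.1 and 24.7 at cap (-0.29 ± 0.0607, adjusted p = 8.07e-05, within the fold limit). *Cx3cr1* measured 8.41, 9.00 and 10.1 CPM in Cap-L+2D and 8.93, 8.81 and 10.5 in Cap-L. Its log2 difference was -0.03 with a 95% interval of -0.20 to 0.14 in the lingual part, and -0.15 with an interval of -0.30 to 0.01 in the buccal part. *Lyve1* was nearly lost. It had 5, 3 and 17 counts in the Cap-L+2D libraries and 14, 6 and 2 in the Cap-B+2D libraries, which is 0.208, 0.107 and 0.478 CPM and 0.394, 0.211 and 0.0639 CPM, and 1 library of each group was at or under the floor. The fitted log2 change over cap was -3.40 ± 0.252 in the lingual part (edgeR, adjusted p = 1.08e-11) and -3.23 ± 0.288 in the buccal part (adjusted p = 1.15e-11). It was -4.27 without Cap-L+2D replicate 3 and -3.98 without Cap-B+2D replicate 1, the libraries with 17 and 14 counts.

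Set against the bell stage of the same side, the members differed in how near the cultures came to the bell level. These comparisons and the ones over cap share libraries and are given side by side. In the lingual part 2 members were higher than at bell and 3 lower (background 14.4% higher, 16.8% lower), and in the buccal part 3 were higher and 3 lower (background 15.5% and 16.3%). *Cd68* was higher on both sides (1.26 ± 0.0551 and 1.04 ± 0.0528), as was *Tyrobp* (0.64 ± 0.0636 and 0.60 ± 0.0687), and *Adgre1* passed the fold limit in the buccal part (0.76 ± 0.0723, against 0.38 ± 0.0733 in the lingual part). *C1qb* differed by -0.04, with a 95% interval of -0.17 to 0.09, in the lingual part and by -0.11, with an interval of -0.25 to 0.03, in the buccal part. *Csf1r* was below bell in the lingual part, where the cultured libraries (58.6 to 62.9 CPM) did not overlap the bell libraries (73.6 to 78.1), with a log2 difference of -0.35 ± 0.0466 within the fold limit (edgeR, adjusted p = 4.59e-07). In the buccal part it differed by 0.01, with an interval of -0.09 to 0.11, in the buccal part.

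The 3 members called lower than at bell were *Mrc1*, *Cx3cr1* and *Lyve1*, on both sides. *Mrc1* was 3.22-fold lower than at bell in the lingual part (log2 -1.69 ± 0.0476, edgeR adjusted p = 6.23e-20) and 2.04-fold lower in the buccal part (-1.03 ± 0.0550, adjusted p = 2.52e-17). *Cx3cr1* was 4.31-fold and 2.31-fold lower. *Lyve1* was at -7.15 ± 0.154 in the lingual part (edgeR, adjusted p = 2.44e-22) and -5.75 ± 0.185 in the buccal part (adjusted p = 2.74e-23). These sizes rest on few counts: the lingual value was -8.01 without Cap-L+2D replicate 3 and the buccal value -6.51 without Cap-B+2D replicate 1. Most lymphatic genes were lower here too, as were genes of blood vessels. All 4 lymphatic genes were lower than at bell in the lingual cultures, where 16.8% of all genes were. Among them were *Ccl21a* at 0.365 against 49.9 CPM and *Flt4*, the receptor of the lymphatic growth factor VEGF-C, at 19.0 against 40.5. In the buccal cultures 3 of 4 were lower (16.3% of all genes), and *Prox1* was higher (30.3 against 13.3 CPM). Of the 8 blood endothelial genes, 3 were lower than at bell in the lingual cultures and 8 in the buccal cultures. The lymphatic genes summed to 31.7 to 31.8 CPM in Cap-L+2D and 39.4 to 41.7 in Cap-B+2D. The part of either list in the *Lyve1* result was not tested.

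**Figure D4:**
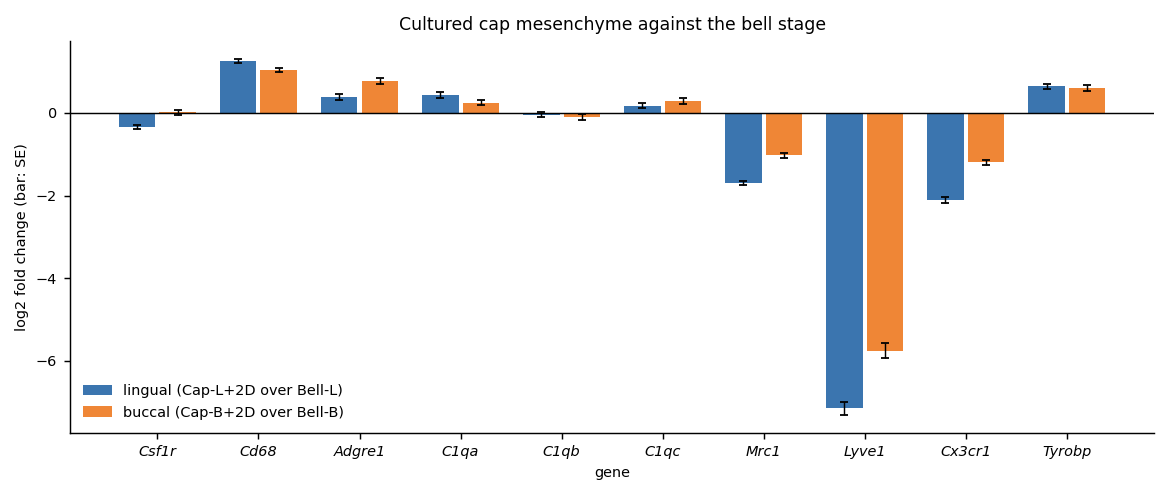
Log2 fold change of cultured cap mesenchyme over the bell stage for each macrophage gene, with the SE as error bar, in the lingual (blue) and buccal (orange) parts. Bars near 0 stand for genes that reached their bell level, as *C1qb* did (-0.04 and -0.11), and the downward bars of *Mrc1*, *Lyve1* and *Cx3cr1* reach from -1.03 to -7.15.

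Ratios between members within a library set aside their common level. On the TPM scale, *Cx3cr1* stood at 0.265 to 0.412 of *C1qb* in the 18 uncultured libraries, at 0.0655 to 0.0806 in Cap-L+2D and at 0.132 to 0.163 in Cap-B+2D. The ratio of *Mrc1* to *C1qb* was 0.402 to 0.761 uncultured, 0.187 to 0.233 in Cap-L+2D and 0.198 to 0.273 in Cap-B+2D. *C1qa* over *C1qb* went the other way, from at most 1.23 uncultured to 1.33 to 1.53 in the 6 cultured libraries. The 2 kinds of library did not overlap in any of these 3 ratios, which all have *C1qb* as the divisor. Nor did they in *Lyve1* over *C1qb* or in *C1qb* over *C1qc* (1.46 to 3.18 uncultured, 1.24 to 1.41 cultured). They did overlap in *C1qa* over *C1qc* (1.41 to 2.74 and 1.69 to 2.05) and in *Cd68* over *C1qb* (0.735 to 3.27 and 1.72 to 2.52). The ratios are given as a description with no test.

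The sides also differed after culture. Of the 9 members that could be tested, 6 were lower in the buccal culture (background 12.5% called lower), among them the C1q chains (-0.87, -0.91 and -0.79), and *Csf1r* (-0.36 ± 0.0458) and *Tyrobp* (-0.49 ± 0.0603) were lower within the fold limit. Close to the fold limit, *Adgre1* (-0.53) did not pass without Cap-B+2D replicate 3, and *Tyrobp* passed without Cap-B+2D replicate 2 or Cap-L+2D replicate 1. *Cx3cr1* did not differ detectably (0.02, 95% interval -0.14 to 0.19). The side by culture term passed for 8 of 10 members, all with the lower log2 change in the buccal part (background 19.5% in that direction), and not for *Lyve1* (0.16 ± 0.559) or *Cx3cr1* (-0.12 ± 0.125). Of these, *Mrc1* rose over cap in the lingual part (0.67) and was below cap in the buccal part (-0.29, within the fold limit). Skeletal muscle genes summed to a mean of 2270 CPM in Cap-B+2D and 187 in Cap-L+2D, and blood endothelial genes to 186 and 453. Their part in the side difference was not tested.

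The wider gene lists moved unevenly in culture. All 10 phagolysosome genes rose over cap on both sides, and their sum went from 644 to 3200 CPM in the lingual part and from 603 to 2170 in the buccal part. *Gpnmb*, a lysosomal membrane glycoprotein of lipid-laden macrophages that other cells also make, went from 1.16 to 533 CPM in the lingual part (log2 8.84 ± 0.0858, edgeR adjusted p = 2.62e-29) and from 1.32 to 401 in the buccal part (8.21 ± 0.0634, adjusted p = 1.79e-40). *Lyz2*, the lysozyme of myeloid cells, went from 5.14 to 339 CPM and from 4.19 to 174. Both exceeded their bell means, 1.70 CPM for *Gpnmb* and 24.7 CPM for *Lyz2* in Bell-L. Of 10 phagolysosome genes, 10 exceeded bell in the lingual cultures and 9 in the buccal cultures, as did *Cd68*, whose protein also lies in the lysosome.

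Genes of resident macrophages moved both ways. Of the 8 tested, 4 rose and 1 fell over cap in the lingual part, where 19.6% of all genes rose and 15.9% fell. In the buccal part 3 rose and 2 fell, where 17.9% of all genes rose and 16.6% fell. The counts of genes that fell were thus near the background. *Ms4a7* rose from 0.498 to 11.2 CPM and *Siglec1*, a sialic acid receptor, from 0.735 to 7.04 in the lingual part, and the scavenger receptor *Marco* was at 5.26 CPM where the cap level of 0.0187 lay under the floor. *F13a1* fell from 10.4 to 3.17 CPM in the lingual part (-1.74 ± 0.0971, edgeR adjusted p = 3.86e-14) and from 10.4 to 0.664 in the buccal part (-4.00 ± 0.130, adjusted p = 2.63e-23), although it had risen to 114 and 40.3 in the bell mesenchyme. *Cd163* did not pass on either side over cap (0.33 ± 0.375 and -0.45 ± 0.388).

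All 8 immune receptors and adaptors rose on both sides, among them *Trem2*, the lipid receptor that signals through TYROBP, from 1.12 to 17.3 CPM in the lingual part. *Spi1*, which encodes the myeloid transcription factor PU.1, rose from 5.31 to 13.4 CPM in the lingual part and from 4.72 to 8.93 in the buccal part. The ligand genes rose too: *Csf1* from 38.8 to 95.8 CPM in the lingual part and from 37.3 to 107 in the buccal part, *Il34* from 0.413 to 2.06 and from 0.405 to 2.91, and *Cx3cl1* from 6.06 to 35.4 and from 4.92 to 18.4. The level of *Cx3cl1*, the ligand, thus rose on both sides while that of its receptor *Cx3cr1* was not called. *Csf1* is also made by mesenchymal cells, and the cell that made each transcript cannot be told from bulk libraries.

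Inflammatory genes moved both ways. Of 9 tested, 6 rose and 1 fell in the lingual part and 2 rose and 3 fell in the buccal part, where 17.9% of all genes rose and 16.6% fell, so that the buccal count of genes that rose was near the background. *Ptgs2*, the inducible cyclooxygenase, rose from 3.25 to 94.8 CPM and from 5.33 to 28.9, and *Il6* from 0.428 to 5.02 and from 0.775 to 2.54. *Il1b* fell from 2.64 to 0.501 CPM in the lingual part (-2.35 ± 0.197, edgeR adjusted p = 1.11e-10) and from 4.93 to 0.166 in the buccal part (-4.87 ± 0.233, adjusted p = 1.22e-18). Of 8 monocyte and neutrophil genes tested in the lingual part, 7 rose and 1 fell, where 19.6% of all genes rose and 15.9% fell. Of 6 tested in the buccal part, 3 rose and 1 fell. *Ccr2*, a monocyte chemokine receptor, fell on both sides, from 0.972 to 0.150 CPM and from 1.06 to 0.0860, and the neutrophil genes *S100a8* and *S100a9* rose from levels of at most 0.517 CPM.

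**Figure D5:**
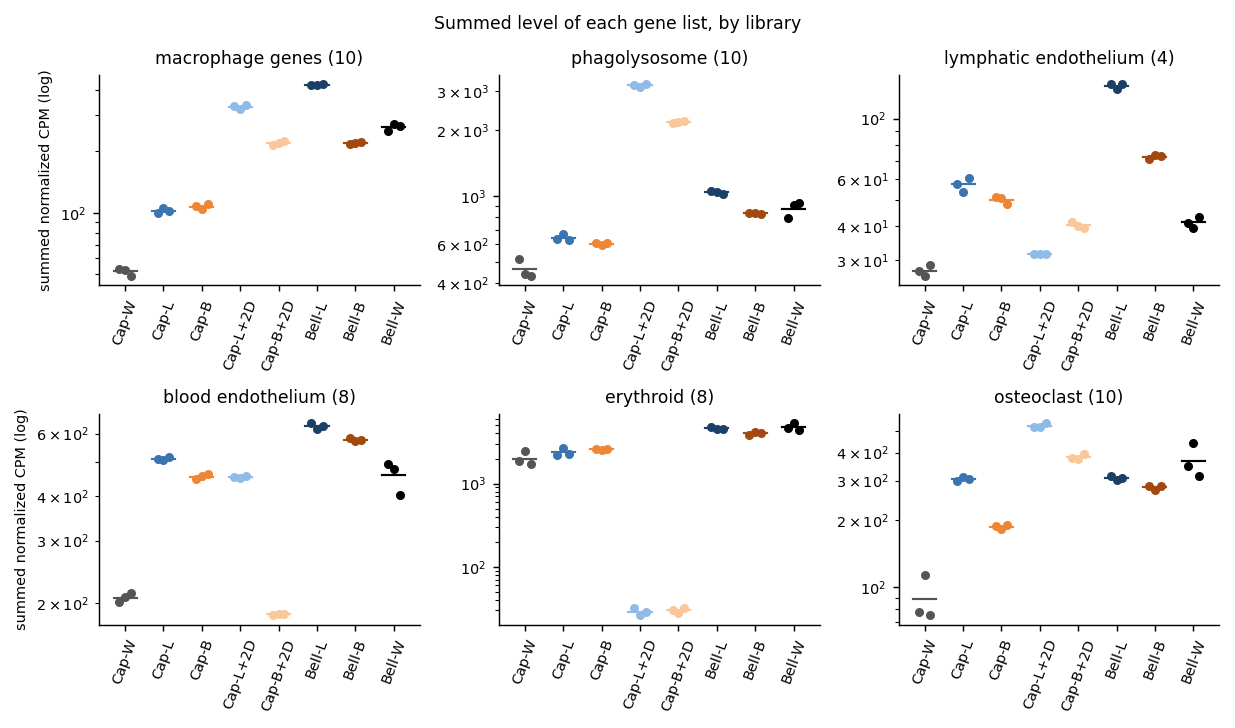
Summed normalized CPM (log scale) of 6 gene lists in the 24 libraries, 3 points per group with a line at the mean. The macrophage sum in CPM is highest in Bell-L (421 to 425), the phagolysosome sum is highest in the cultures (3150 to 3240 in Cap-L+2D), and the erythroid sum is 26.2 to 32.4 in the cultures against 1700 or more elsewhere. In TPM, which is not drawn, the macrophage sum is highest in Cap-L+2D (mean 457, against 408 in Bell-L). The buccal means are 309 in Cap-B+2D and 243 in Bell-B.

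Genes of osteoclasts, the bone-resorbing cells of the same lineage, were read as a list of 10. Their sum had a mean of 304 CPM in Cap-L and 309 in Bell-L, 187 in Cap-B and 280 in Bell-B, and 527 and 382 in the lingual and buccal cultures. From cap to bell 6 of 9 genes tested rose and 1 fell in the lingual part, where 14.2% of all genes rose. In the buccal part 6 of 10 rose (12.0% of all genes), and in the undivided mesenchyme 7 of 9 rose (10.3% of all genes). The undivided sum went from 88.6 to 368 CPM. The gene that fell in the lingual part was *Mmp9*, a gelatinase with the largest share of the Cap-L sum. *Ctsk*, the collagen-cleaving cathepsin, rose from 44.5 to 114 CPM from Cap-L to Bell-L and to 181 in culture, whereas *Mmp9* fell from 199 to 111 CPM at bell (-0.83 ± 0.0426, edgeR adjusted p = 2.14e-14). *Mmp9* and *Ctsk* thus held most of the Cap-L sum of 304 CPM. The cell that made them cannot be told from bulk libraries, so the sums are no measure of osteoclasts.

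Over the 24 libraries the members resembled each other to unequal degrees. The correlation of each member's log2 normalized CPM with the mean profile of the other 9 was 0.980 for *Csf1r*, 0.968 for *C1qb*, 0.958 for *C1qc*, 0.940 for *C1qa*, 0.922 for *Adgre1* and 0.919 for *Tyrobp*. It was lower for *Mrc1* (0.832), *Cx3cr1* (0.712), *Cd68* (0.679) and *Lyve1* (0.309). The genes outside the 10 whose log2 level followed the members' mean profile most closely were *Nfam1* (r = 0.984), *Arhgap30* (0.984), *Dock2* (0.981), *Omd* (0.979), *Pdk4* (0.976), *S100a13* (0.975), *Fermt3* (0.974), *Ms4a6b* (0.973), *Fcgr1* (0.973) and *Nt5e* (0.972). *Nfam1*, an immune receptor, ranged from 4.03 to 11.4 CPM between group means, and *Nt5e*, which encodes the ectoenzyme CD73 and is also made by mesenchymal cells, from 6.57 to 80.5. The libraries of a group share their tissue and stage, so these values describe 24 libraries of 8 groups and carry no p.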

How the data were processed

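The series was measured by bulk RNA-seq of dental mesenchyme, with 24 libraries in 8 groups of 3. The authors deposited 1 table of raw counts per gene, made with featureCounts 2.0.0 in paired mode over the exons of GRCm39 (Ensembl 107), per the file headers, whose command sets no option for strand, for multi-mapping pairs or for pairs that overlap several genes, so that strand was ignored and such pairs were left out. The aligner is named differently in the study's methods (STAR) and in the labels (Bowtie), as is the library kit (TruSeq Stranded or SMARTer). The deposited counts of 20581720 to 39266497 pairs per library were used as they are. Reads of overlapping genes on opposite strands cannot be told apart.

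Levels are CPM after TMM scaling over all 24 libraries, and TPM used the exon length in the deposited table. Gene symbols came from an Ensembl 116 annotation of GRCm39, matched by gene ID. The 10 macrophage genes and the 19 other lists were chosen with earlier results of these data known. Named are all 10 members, the first 3 genes of each list, up to 3 called genes with the largest change in each direction, and the 10 genes with the highest correlation to the members. Groups came from the labels.

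Tests used edgeR 4.0.16 in R 4.3.3 (quasi-likelihood, TMM, filterByExpr), fitted over all genes of the libraries compared, with Benjamini-Hochberg adjustment over all genes tested. The 3 groups of a side shared 1 fit. Calls needed an adjusted p under 0.05 together with a log2 fold change beyond 0.5 in either direction, interactions the adjusted p alone. The 95% intervals are the fitted log2 value ± 1.96 SE. An exact permutation test of 3 against 3 libraries cannot go below p = 0.1 and was not used. Scripts were tested on simulated counts. Alternatives were RLE scaling, DESeq2 1.42.0, other filters and thresholds, 1 fit of all 24 libraries, a replicate block, and leaving out each library.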

Additional observations from a re-analysis of the deposited data

Results flagged for a closer look

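The change from cap to bell differed between the sides by a test of the difference itself (edgeR, side by stage term) for each of the 10 macrophage genes. The log2 difference between the buccal and the lingual rise was -0.78 for *Csf1r*, -0.32 for *Cd68*, -0.85 for *Adgre1*, -0.86 for *C1qa*, -1.06 for *C1qb*, -1.05 for *C1qc*, -1.64 for *Mrc1*, -1.23 for *Lyve1*, -1.03 for *Cx3cr1* and -0.44 for *Tyrobp*. The background of genes passing in this direction was 18.0%, and in a single fit of all 24 libraries *Cd68* did not pass (adjusted p = 0.434).

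The change in culture differed between the sides in the same way (edgeR, side by culture term) for 8 of the 10 genes. The log2 difference was -0.41 for *Csf1r*, -0.53 for *Cd68*, -0.47 for *Adgre1*, -1.05 for *C1qa*, -1.13 for *C1qb*, -0.92 for *C1qc*, -0.98 for *Mrc1* and -0.48 for *Tyrobp*, against a background of 19.5% in this direction. In a single fit of all 24 libraries *Cd68* did not pass here either (adjusted p = 0.0951). Groups of 3 libraries were too small for a check of single libraries against the rest of their group.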

How the results depend on the processing

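Of 119 values of a member in a comparison, 90 were called, and 82 of these were called in the same direction under every alternative that could be run. None of the 1839 values under alternatives turned a called direction. RLE scaling, DESeq2, both filters and the replicate block changed no call of a member that could be tested, although at least 10 counts in every library left *Lyve1* untested wherever cultured or Cap-W libraries entered. Without the fold limit, 2 members differed between the sides at cap (*Mrc1* and *Lyve1*, in opposite directions) in place of 0, and 9 differed between lingual culture and bell in place of 5. With the fold limit added, 5 in place of 8 passed the side by culture term and 8 in place of 10 the side by stage term (*Cd68* and *Tyrobp* did not). Leaving out 1 library gave 0 to 1 members called between the sides at cap (*Lyve1*, without Cap-L replicate 3 or Cap-B replicate 1), 5 to 7 between the sides after culture in place of 6, and 9 to 10 in the undivided mesenchyme, where *Cd68* was the call that was lost, and 8 to 9 between the sides at bell (*Tyrobp*, without Bell-B replicate 3). The cause of these changes was not tested. At these depths *Lyve1* after culture rests on 2 to 17 counts per library. Over all genes, leaving out the fold limit gave 7846 to 14768 calls in 9 comparisons that had 2729 to 7598. A fit of all 24 libraries gave 5887 calls in place of 3037 in the undivided mesenchyme, 2581 in place of 7137 for the side by stage term and 4048 in place of 7842 for the side by culture term, and the fold limit lowered these 2 terms to 3091 and 3822. Same-numbered libraries did not deviate together (30 pairs, correlations -0.061 to 0.086, 0 over 0.1), so the number was not taken to pair them, and with the replicate block 10 of 10 members were called from cap to bell in each comparison, as without it.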
